A study of Homo sapiens with 12 samples.

Results

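The 10 genes described here are CXCL1, CXCL2, CXCL3, CXCL5, CXCL8, CCL2, CCL20, IL1A, IL1B and TNFAIP3, which are textbook targets of the transcription factor NF-kB. They were chosen by symbol, and all 10 were found among the 58302 genes of the deposited expression table. RNA sequencing was performed on 4 libraries each of BPH-1, a benign prostate epithelial line, DU145 and PC3, both prostate cancer (PCa) lines that grow without androgen. All were labelled wild type and carried no stated treatment. They were grown in Dulbecco's modified Eagle's medium with fetal bovine serum. No added stimulus was stated, and the activity of NF-kB was not measured. Each group is 1 line, and therefore a difference between groups is a difference between lines, not between benign and malignant prostate. The labels do not say whether the 4 libraries of a line came from separate cultures, so the p-values may measure technical spread only. Levels are the authors' FPKM (fragments per kilobase of transcript and scaled to the mapped reads of the library), and a difference is one of mean log2(FPKM + 1), tested with limma.

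NF-kB is a family of dimers built from RELA, RELB, REL, NFKB1 and NFKB2, held in the cytoplasm by IkB proteins until the IKK kinase complex marks these for destruction. IL-1α and IL-1β, the products of IL1A and IL1B, bind IL1R1 and are strong activators of this route, and CXCL and CCL chemokines are among its fastest targets. CXCL1, CXCL2, CXCL3, CXCL5 and CXCL8 carry the ELR motif and attract neutrophils through CXCR1 and CXCR2. CCL2 attracts monocytes through CCR2, and CCL20 attracts lymphocytes and dendritic cells through CCR6. TNFAIP3 encodes A20, a ubiquitin-editing enzyme that shuts the pathway down, and is itself a target.

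All 5 ELR chemokine genes lie on chromosome 4 (GRCh38), from the lower end of CXCL8 at 73740506 to the upper end of CXCL2 at 74099293. CXCL8 and CXCL1 are on the plus strand, and CXCL5, CXCL3 and CXCL2 on the minus strand. IL1A (112773915 to 112784590) and IL1B (112829751 to 112836903) are neighbours on the minus strand of chromosome 2. CCL20 is on the plus strand of chromosome 2 at 227813842 to 227817564, CCL2 on the plus strand of chromosome 17 at 34255218 to 34257203, and TNFAIP3 on the plus strand of chromosome 6 at 137867188 to 137883312. The proximal promoters are shown because the members share a regulator by name. RefSeq (GRCh38.p14) gave a window from 250 bases before to 50 bases after the start site for 9 of the 10 members, not for CCL2. The 150 bases before the start are printed for 7 of them, 5′ to 3′ on the gene's strand, with matches to the kappaB consensus of NF-kB on either strand in capitals.
CXCL1, chr4:73869243-73869392, plus strand: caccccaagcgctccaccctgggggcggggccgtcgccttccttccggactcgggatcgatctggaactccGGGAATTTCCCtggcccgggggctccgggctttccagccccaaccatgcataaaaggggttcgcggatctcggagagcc
CXCL2, chr4:74099196-74099345, minus strand: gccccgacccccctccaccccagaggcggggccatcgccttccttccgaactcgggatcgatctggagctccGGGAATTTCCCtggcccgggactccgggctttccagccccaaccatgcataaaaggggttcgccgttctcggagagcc
CXCL3, chr4:74038690-74038839, minus strand: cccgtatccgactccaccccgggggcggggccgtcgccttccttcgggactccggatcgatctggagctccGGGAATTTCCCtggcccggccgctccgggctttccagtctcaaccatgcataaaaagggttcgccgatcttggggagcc
CXCL5, chr4:73998678-73998827, minus strand: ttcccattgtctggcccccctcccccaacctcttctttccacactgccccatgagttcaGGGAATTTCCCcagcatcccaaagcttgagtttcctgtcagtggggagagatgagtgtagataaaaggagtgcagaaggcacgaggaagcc
CXCL8, chr4:73740419-73740568, plus strand: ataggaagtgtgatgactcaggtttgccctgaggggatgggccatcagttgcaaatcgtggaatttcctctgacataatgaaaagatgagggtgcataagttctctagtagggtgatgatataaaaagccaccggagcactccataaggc
CCL20, chr2:227813692-227813841, plus strand: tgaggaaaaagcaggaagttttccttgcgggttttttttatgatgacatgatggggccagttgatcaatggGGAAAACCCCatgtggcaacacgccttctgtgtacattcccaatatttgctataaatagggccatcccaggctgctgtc
TNFAIP3, chr6:137867109-137867258, plus strand: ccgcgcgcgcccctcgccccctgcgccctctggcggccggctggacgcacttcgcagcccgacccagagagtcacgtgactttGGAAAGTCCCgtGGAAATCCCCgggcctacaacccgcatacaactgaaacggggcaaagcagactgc

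A kappaB match was in the window of 6 of the 9 members, against 3956 of 35116 promoters of the same length (11.3%). Members were counted by gene and promoters by window. The members were chosen as NF-kB targets, and CXCL1, CXCL2 and CXCL3 are close paralogs, so the 2 counts are not a test. CXCL1, CXCL2, CXCL3 and CXCL5 held the same 11 bases, GGGAATTTCCC, which match the consensus on both strands in overlapping frames. Counted from the start site, the match on the gene's strand ran from -79 to -70 in CXCL1 and CXCL3, from -78 to -69 in CXCL2 and from -91 to -82 in CXCL5. CCL20 held 1 match and TNFAIP3 held 2, GGAAAGTCCC and GGAAATCCCC, read on the other strand. No match was in the windows of CXCL8, IL1A and IL1B, which says only that these letters are absent there. The TATA letters TATAAA, searched on both strands, stood in windows of CXCL8, CCL20 and IL1A, and in 4049 of all windows (11.5%). They ran from -31 to -26 in CXCL8 and from -29 to -24 in CCL20, but from -239 to -234 in IL1A, far from the start site. The matches describe sequence, and binding was not measured.

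Some libraries stood apart from others of their line. The DU145 libraries fell into 2 pairs, replicates 1 and 3 and replicates 2 and 4 (a chi-square per gene of 37.0 and 23.7 within these pairs, and 104 to 215 between them). PC3 replicate 4 stood apart from the other PC3 libraries (57.7 to 86.3, against 17.3 to 35.9 among those), and the IL1B and CXCL5 differences of PC3 are given with and without it. A different division ran through some of the cell-type markers. PTPRC, the pan-leukocyte antigen CD45, was at 1.35 and 1.25 FPKM in DU145 replicates 1 and 2 and at 0 in replicates 3 and 4. LYZ, lysozyme of myeloid cells, was at 7.76 and 8.63 in the first pair and at 0 in the second. Both genes were read in all 4 BPH-1 libraries (PTPRC 1.15 to 1.54, LYZ 7.61 to 10.1), whereas in PC3 PTPRC was at 0 and LYZ at 0.0281 to 0.167. Of 8 leukocyte markers, 3 had a mean of at least 1 FPKM in BPH-1, 2 in DU145 and 1 in PC3. The summed level of the 8 was 15.3 to 20.3, 5.40 to 16.0 and 7.18 to 14, and CD3E was at 0 in every library. KRT5, a basal keratin at 120 to 175 FPKM in BPH-1, was at 0.342 and 0.499 in DU145 replicates 1 and 2 and at 0.0240 and 0 in replicates 3 and 4. CD14 followed the same division (0.416, 0.382, 0 and 0.0387 FPKM in DU145 replicates 1 to 4). CD68 (5.85, 3.83, 9.95 and 5.06) and CSF1R (0.0555, 0.0368, 0.107 and 0.0335) did not. DCN, COL1A2 and LUM, markers of fibroblasts, ran the other way, at 0 in replicates 1 and 2. In replicates 3 and 4 DCN was at 0.373 and 0.214, COL1A2 at 0.133 and 0.135, and LUM at 0.108 and 0.140. The part of these markers in the results was not tested. Epithelial markers reached 1 FPKM in 6 of 6 genes in BPH-1, 3 of 6 in DU145 and 4 of 6 in PC3 (summed 272 to 376, 84.6 to 163 and 220 to 367), with CDH1 at 0.180 and EPCAM at 0.376 in DU145. Of 6 fibroblast markers 1, 0 and 1 reached a mean of 1 FPKM in BPH-1, DU145 and PC3, and of 4 endothelial markers 0, 0 and 1. Bulk RNA cannot separate fewer cells of a type from less RNA in each.

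PC3 had the highest mean level of 4 of the 5 ELR chemokines. CXCL1 was the most abundant of the 5 in BPH-1 and PC3, and CXCL8 in DU145. CXCL1 was at 128, 149, 88.2 and 50.9 FPKM in BPH-1 replicates 1 to 4, at 24.4, 29.7, 18.6 and 13.2 in DU145 and at 1106, 1289, 1340 and 1305 in PC3. The 3 lines did not overlap, in the order PC3, BPH-1, DU145. The PC3 mean (1260 ± 105, SD, n = 4) was 12.1 times the BPH-1 mean (104 ± 43.6) and 58.7 times the DU145 mean (21.5 ± 7.14). The log2 difference was 3.69 ± 0.29 (SE, adjusted p = 4.61e-06) between PC3 and BPH-1, and -2.17 ± 0.35 (adjusted p = 0.000416) between DU145 and BPH-1. PC3 exceeded DU145 by 5.87 ± 0.23 (adjusted p = 2.08e-07).

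CXCL2, a close paralog of CXCL1, followed another order. It was at 8.37, 6.21, 9.04 and 3.71 FPKM in BPH-1, 54.6, 71.5, 30.9 and 18.3 in DU145 and 29.4, 33.3, 34.4 and 33.2 in PC3. Every library of both PCa lines lay above every BPH-1 library, while DU145 spanned the whole PC3 range. DU145 was 6.41 times BPH-1 (log2 difference 2.40 ± 0.40, adjusted p = 0.000578) and PC3 4.77 times BPH-1 (2.16 ± 0.22, adjusted p = 2.30e-05). Between PC3 and DU145 the difference was -0.24 with a 95% interval from -1.07 to 0.58 (adjusted p = 0.614), and its sign depended on the DU145 libraries: it was -0.92 (adjusted p = 0.00416) against DU145 replicates 1 and 2 and 0.44 (adjusted p = 0.176) against replicates 3 and 4.

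CXCL3, the third of these paralogs, rose stepwise over the lines. Its values were 1.27, 0.668, 1.22 and 0.637 FPKM in BPH-1, 3.27, 3.11, 2.78 and 1.92 in DU145 and 11.7, 17.5, 21.2 and 12.6 in PC3, with no overlap. PC3 exceeded BPH-1 by 3.08 ± 0.21 (adjusted p = 1.74e-06) and DU145 by 2.13 ± 0.22 (adjusted p = 4.87e-05), and DU145 exceeded BPH-1 by 0.95 ± 0.18 (adjusted p = 0.00115). The 3 paralogs share sequence: 4.81% of the 50-base stretches of CXCL1 transcripts, 12.5% of those of CXCL2 and 6.01% of those of CXCL3 also occur in another gene, so some reads could be split among them. No such stretch was shared for CXCL5, CXCL8, CCL2, CCL20, IL1A or IL1B.

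CXCL5, which encodes ENA-78, was highest in PC3. It was at 1.20, 2.74, 0.888 and 0.404 FPKM in BPH-1 and at 24.7, 43.0, 30.2 and 3.68 in PC3, while DU145 had 0, 0, 0.128 and 0.206, or 12 reads in all 4 libraries together. In DU145, 3 reads would be 0.0725 to 0.0881 FPKM. The lines did not overlap, although PC3 replicate 4 was far below the other PC3 libraries and close to the highest BPH-1 library. PC3 exceeded BPH-1 by 3.22 ± 0.63 (adjusted p = 0.00142; 3.92 without PC3 replicate 4), and DU145 by 4.22 ± 0.60 (adjusted p = 0.000385; 4.92 without that library), and DU145 was below BPH-1 by -1.0 ± 0.24 (adjusted p = 0.00515). The DU145 call was lost when 1 fit held all 3 lines (adjusted p = 0.126) and against DU145 replicates 3 and 4 alone (adjusted p = 0.0562).

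CXCL8, interleukin 8, was abundant in all lines. BPH-1 had 40.3, 50.5, 50.8 and 15.1 FPKM, DU145 70.0, 185, 46.6 and 64.5, and PC3 143, 161, 130 and 86.6. All PC3 libraries lay above all BPH-1 libraries, and PC3 was 3.32 times BPH-1 (log2 difference 1.81 ± 0.36, adjusted p = 0.00167). DU145 overlapped both neighbours in this order. Its mean of 91.6 ± 63.3 rested on replicate 2, which had 8671 of its 16472 reads. The difference from BPH-1 was 1.13 with an interval from 0.08 to 2.19 (adjusted p = 0.0578), and it passed the threshold against replicates 1 and 2 alone (1.66, adjusted p = 0.0350) and not against replicates 3 and 4 alone (0.61, adjusted p = 0.303). PC3 exceeded DU145 by 0.67 (interval -0.22 to 1.56, adjusted p = 0.190), and by 1.08 (adjusted p = 0.00701) without DU145 replicate 2.

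**Figure D1:**
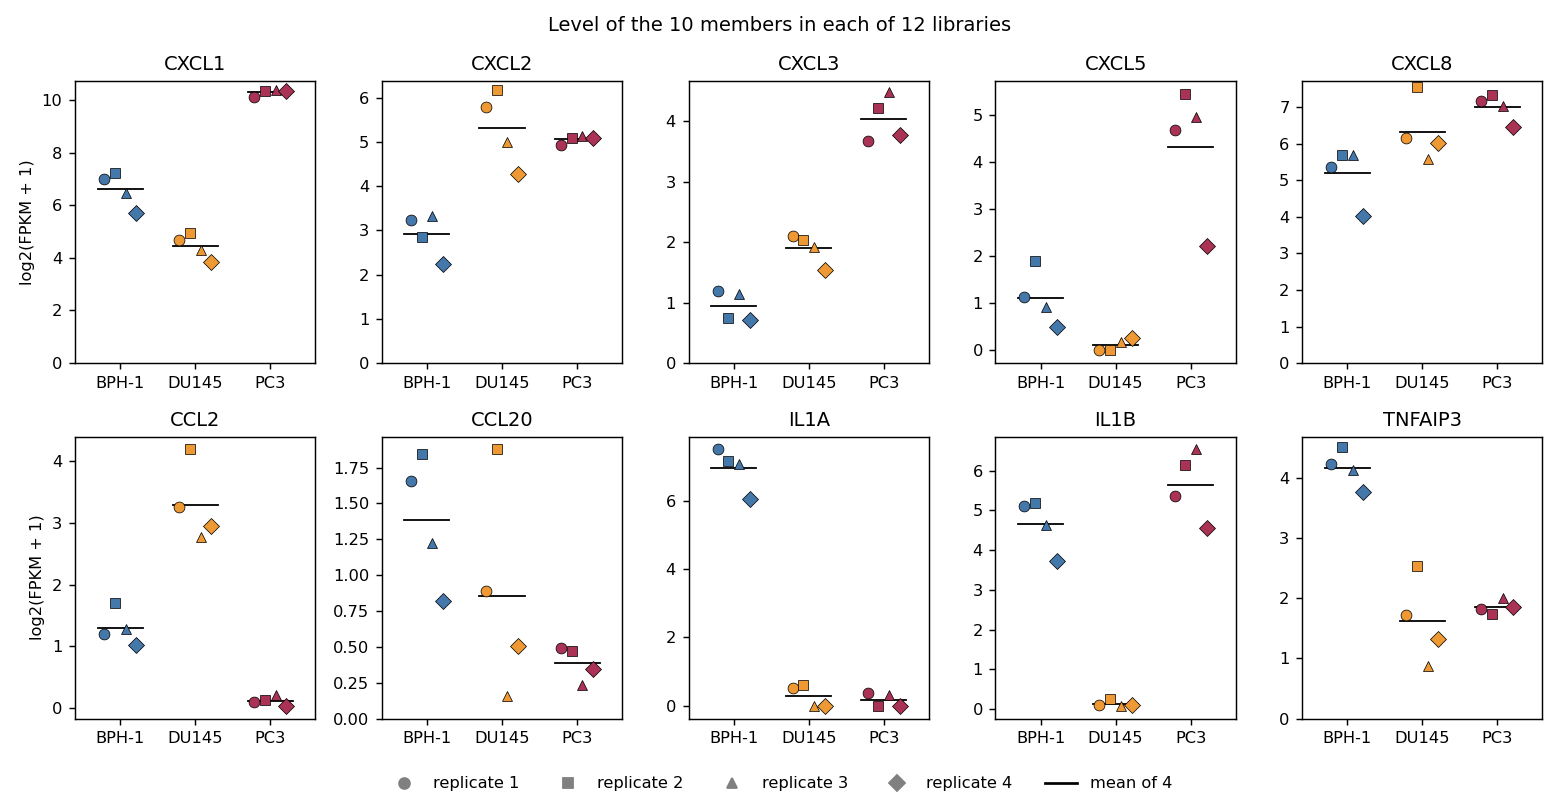
Level of each member as log2(FPKM + 1) on the vertical axis in BPH-1, DU145 and PC3; each symbol is 1 library, its shape gives the replicate and the bar is the mean of 4. CXCL1 separates all 3 lines, IL1A is high in BPH-1 only, IL1B is near 0 in DU145 only, and the vertical scale differs between panels.

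The summed level of the 5 ELR chemokines was 152 ± 59.5 FPKM in BPH-1, 160 ± 90.2 in DU145 and 1464 ± 112 in PC3 (SD, n = 4 each). FPKM is per length, so the genes can be set beside each other, with the length being the sum of distinct annotated exons that the authors' values imply. In BPH-1, CXCL1 made 68.4% ± 6.42 of the sum and CXCL8 25.4% ± 5.70. In DU145 the order was turned, with CXCL8 at 55.7% ± 10.6, CXCL2 at 27.6% ± 7.53 and CXCL1 at 14.6% ± 3.66. In PC3, CXCL1 made 86.1% ± 3.20, CXCL8 8.92% ± 2.23 and CXCL2 2.23% ± 0.0632. The sums of BPH-1 and DU145 overlapped (70.8 to 209 and 98.1 to 290 FPKM), but CXCL1 had the largest share in BPH-1 and CXCL8 in DU145. CXCL6, an ELR chemokine that is not a member, is not in these sums. Its mean in PC3 was 85.4 FPKM, below CXCL1 and CXCL8 and above CXCL2. The ranges of the CXCL1 share did not overlap between any of the lines (58.7% to 71.9%, 10.2% to 18.8% and 83.5% to 90.6%). With merged exon lengths the CXCL1 share was 66.4%, 13.1% and 84.9%.

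CCL2, the monocyte chemokine MCP-1, was the member highest in DU145 relative to both other lines. It was at 1.31, 2.25, 1.41 and 1.02 FPKM in BPH-1, 8.61, 17.3, 5.85 and 6.70 in DU145 and 0.0697, 0.0878, 0.152 and 0.0232 in PC3. No line overlapped another, and the 4 PC3 libraries together held 15 reads. DU145 exceeded BPH-1 by 2.0 ± 0.30 (6.42 times, adjusted p = 0.000288), PC3 was below BPH-1 by -1.18 ± 0.13 (adjusted p = 3.87e-05), and PC3 was below DU145 by -3.18 ± 0.29 (adjusted p = 2.33e-05). Because a pseudocount of 1 dampens low values, the ratio of means is larger: BPH-1 had 18.0 times the PC3 level and DU145 116 times. The other genes of the CCL2 cluster on chromosome 17, namely CCL7, CCL8, CCL11, CCL13 and CCL1, were at 0 in every library. The receptor CCR2 was at 0.115 in BPH-1, 0.0493 in DU145 and 0 in PC3.

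CCL20, also called MIP-3α, was low throughout. BPH-1 had 2.15, 2.59, 1.34 and 0.768 FPKM, DU145 0.849, 2.68, 0.114 and 0.421, and PC3 0.408, 0.386, 0.178 and 0.272. PC3 lay below BPH-1 without overlap (-1.0 ± 0.20, adjusted p = 0.00156), and DU145 spanned the range of both. The difference between DU145 and BPH-1 was -0.53 (interval -1.32 to 0.26, adjusted p = 0.215), and DU145 replicate 2, with 124 of the 184 DU145 reads, decided this. Without it, the difference was -0.87 (adjusted p = 0.0169). Between PC3 and DU145 the difference was -0.47 (interval -1.18 to 0.24, adjusted p = 0.249), and it was -1.0 (adjusted p = 0.0211) against DU145 replicates 1 and 2 and 0.06 (adjusted p = 0.750) against replicates 3 and 4. CCR6, the CCL20 receptor, was at 0 in every library.

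The interleukin 1 genes divided the lines sharply, and the pair did not move together. IL1A, which encodes the precursor of a cell-associated alarmin, was at 179, 141, 134 and 64.6 FPKM in BPH-1. DU145 had 0.436, 0.520, 0 and 0, and PC3 had 0.291, 0, 0.238 and 0. The PCa libraries held 0 to 18 IL1A reads each and the BPH-1 libraries 2142 to 5876. BPH-1 had 543 times the DU145 mean (log2 difference -6.66 ± 0.30, adjusted p = 2.41e-07) and 982 times the PC3 mean (-6.77 ± 0.28, adjusted p = 9.09e-08). Between PC3 and DU145 IL1A was not tested, since it had too few reads for the filter. The DU145 libraries with IL1A reads were those with PTPRC and LYZ reads and the higher KRT5 levels. DU145 replicates 3 and 4 held 0 IL1A reads, and their difference from BPH-1 was -6.94 (adjusted p = 2.43e-05). With 0 reads in these libraries, that fit could only come out lower than BPH-1. In both full comparisons, too, IL1A passed the filter through its BPH-1 reads, so a call could hardly go the other way. A link between the IL1A reads and the markers was not tested.

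IL1B, the secreted form that caspase-1 activates, was present in BPH-1 and PC3 and nearly absent from DU145. It was at 33.5, 35.7, 24.0 and 12.2 FPKM in BPH-1, 40.2, 70.3, 91.8 and 22.5 in PC3 and 0.0828, 0.200, 0.0621 and 0.0715 in DU145. DU145 had 34 reads in all and lay below both other lines without overlap, by -4.53 ± 0.30 against BPH-1 (adjusted p = 1.51e-06), and PC3 exceeded DU145 by 5.51 ± 0.38 (adjusted p = 4.73e-06). PC3 and BPH-1 overlapped: the mean was 56.2 ± 30.9 against 26.3 ± 10.7 FPKM, the difference 0.98 with an interval from -0.03 to 2.0 (adjusted p = 0.0793), and an exact two-sided permutation test gave p = 0.143. The call depended on PC3 replicate 4, without which the difference was 1.35 (adjusted p = 0.0156). In PC3, IL1B thus stood at 56.2 FPKM beside 0.132 for IL1A, while in BPH-1 IL1A stood above IL1B in all 4 libraries.

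TNFAIP3 was highest in BPH-1. It was at 17.8, 21.6, 16.5 and 12.6 FPKM in BPH-1, 2.29, 4.76, 0.842 and 1.5 in DU145 and 2.53, 2.31, 3.01 and 2.60 in PC3. Both PCa lines lay below every BPH-1 library, DU145 by -2.54 ± 0.32 (adjusted p = 9.77e-05) and PC3 by -2.31 ± 0.16 (adjusted p = 2.05e-06). PC3 fell inside the DU145 range, with a difference of 0.24 (interval -0.47 to 0.94, adjusted p = 0.566). Against DU145 replicates 3 and 4 alone it was 0.75 (adjusted p = 0.0269), and against replicates 1 and 2 alone it was -0.27 (adjusted p = 0.438). Its exons overlap AL357060.1 on the opposite strand over 95 bases, and the use of strand in counting was not given in the sources used here.

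**Figure D2:**
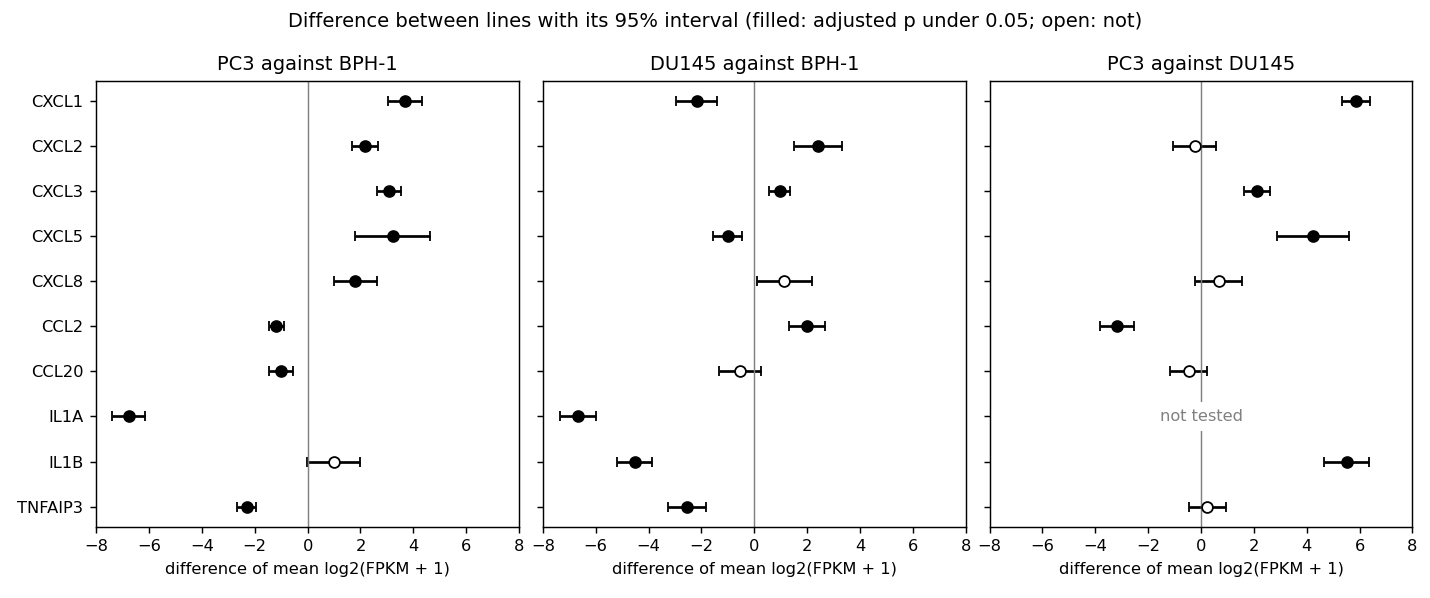
Difference of mean log2(FPKM + 1) between 2 lines for each member (horizontal axis), with its 95% interval; filled points have an adjusted p under 0.05 and open points do not. CXCL1, CXCL5 and CCL2 lie on opposite sides of 0 in the 2 comparisons with BPH-1, and IL1A was not tested between PC3 and DU145.

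Between PC3 and BPH-1, 5 members were higher in PC3 (CXCL1, CXCL2, CXCL3, CXCL5 and CXCL8), 4 were lower (CCL2, CCL20, IL1A and TNFAIP3) and IL1B did not pass. Over all 16414 genes tested, 67.6% were called, 27.1% higher and 40.4% lower, so a call is common in this comparison. Of the calls, 40.2% were higher in PC3, 55.2% with upper-quartile scaling and 30.2% with equal sums, and no member changed direction under either. In DU145 against BPH-1, 3 were higher (CXCL2, CXCL3 and CCL2), 5 lower (CXCL1, CXCL5, IL1A, IL1B and TNFAIP3) and 2 did not pass (CXCL8 and CCL20), with 62.7% of 17020 genes called (30.3% higher and 32.4% lower). There, 48.4% of the calls were higher in DU145, 57.2% with upper-quartile scaling and 38.6% with equal sums. Of 9 members tested between PC3 and DU145, 4 were higher in PC3 (CXCL1, CXCL3, CXCL5 and IL1B), 1 lower (CCL2) and 4 did not pass, with 48.3% of 16425 genes called (20.0% higher and 28.4% lower). The median log2 difference of the members was 1.40, -0.77 and 0.67 in the 3 comparisons, beside -0.13, -0.03 and -0.05 over all genes tested. Both comparisons with BPH-1 used the same BPH-1 libraries. Some genes passed the filter through the reads of the other line, so a call could hardly go the other way. These were IL1A in both PCa lines, CCL2 in PC3, and CXCL5 and IL1B in DU145, each with under 40 reads in the line. Every called member was free of overlap between the lines compared. This alone fixes its exact two-sided permutation p at 0.0286, the smallest that 4 against 4 libraries can give. The share of all genes free of overlap was not computed, so this does not set the members apart.

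The members also varied together between libraries of 1 line. BPH-1 replicate 4 was the lowest BPH-1 library for 9 of the 9 members with a mean of at least 1 FPKM, whereas it was the lowest for 19.0% of 12653 genes at that level. DU145 replicate 2 was the highest for 6 of 7 such members, beside 25.2% of 12134 genes. All 7 were higher in both DU145 replicates 1 and 2 than in both replicates 3 and 4, an arrangement found in 4.82% of these genes, and the division is the one seen for PTPRC and LYZ. In PC3, replicate 3 was the highest for 5 of 7 members (19.3% of 11493 genes), and the lowest library varied, being replicate 1 or 4 for 3 members each. CXCL1 and CXCL2 hardly varied in PC3, with SDs of 8.33% and 6.73% of the mean, while CXCL5 and IL1B had 64.5% and 54.9%. Members are not replicates of one another, and these counts are a description.

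**Figure D3:**
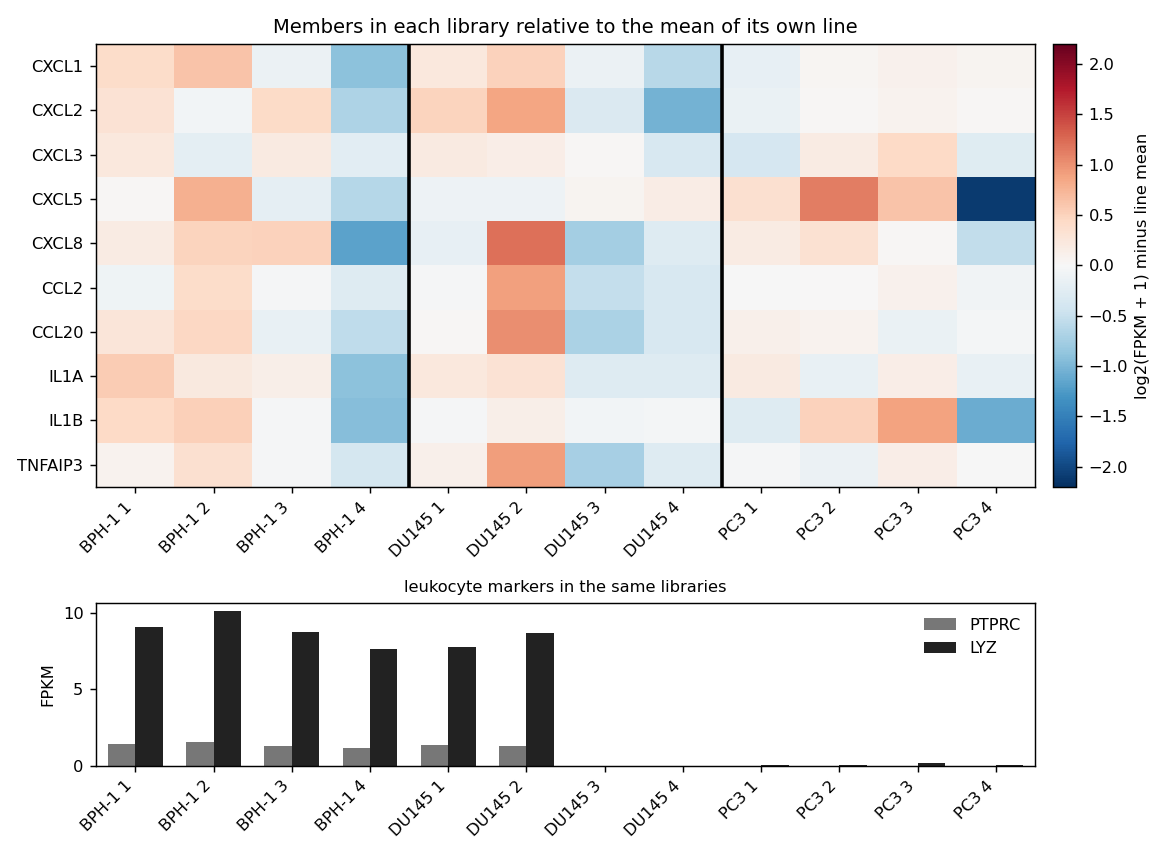
Upper panel: log2(FPKM + 1) of each member in each library minus the mean of its line (red above, blue below). Lower panel: FPKM of the leukocyte markers PTPRC and LYZ in the same libraries; BPH-1 replicate 4 is blue for all members, DU145 replicate 2 is red for all but CXCL5, and both markers are at 0 in DU145 replicates 3 and 4.

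Of the 5 NF-kB subunits, 4 had their highest mean level in DU145. The share of all genes with their highest mean there was not computed. NFKB2, the p100 precursor of the non-canonical route, was at 23.6 ± 2.39 FPKM in BPH-1, 93.2 ± 23.6 in DU145 and 21.9 ± 4.28 in PC3, and DU145 exceeded BPH-1 by 1.90 ± 0.20 (adjusted p = 3.07e-05). RELB, its partner, stood at 4.84, 12.9 and 2.52 (DU145 against BPH-1 1.22, adjusted p = 0.00059). RELA, the main transactivating subunit, was at 3.77, 6.43 and 4.44 and NFKB1 at 11.6, 16.5 and 7.65, and both were higher in DU145 than in BPH-1 (0.65, adjusted p = 0.0214, and 0.46, adjusted p = 0.0373). REL went the other way, with 3.73 in BPH-1, 0.343 in DU145 and 0.202 in PC3. In PC3 against BPH-1, 3 of the 5 were lower (RELB, REL and NFKB1) and none higher, and RELA and NFKB2 did not pass (adjusted p = 0.404 and 0.498). Of all genes tested there, 40.4% were lower and 27.1% higher. Against DU145, PC3 was lower for RELB, NFKB1 and NFKB2, beside 28.4% of all genes lower and 20.0% higher. In DU145 against BPH-1, 4 subunits were higher and 1 lower, beside 30.3% and 32.4% of all genes.

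Among 22 genes of the IKK complex and its upstream kinases and adaptors, 6 were higher and 9 lower in PC3 than in BPH-1, 8 higher and 9 lower in DU145 than in BPH-1, and 2 higher and 3 lower in PC3 than in DU145. The median log2 differences were -0.16, -0.04 and -0.11. In PC3 against BPH-1 these counts are close to the shares over all genes (27.1% higher and 40.4% lower). The shares were 30.3% and 32.4% in DU145 against BPH-1, and 20.0% and 28.4% in PC3 against DU145. Those highest in DU145 included MAP3K14, the NIK kinase of the non-canonical route (3.84, 17.6 and 6.94 FPKM in BPH-1, DU145 and PC3), and TRAF1 (1.78, 13.7 and 0.106), a TNF receptor adaptor. TBK1, an IKK-related kinase, was at 18.0, 2.29 and 1.24, and TAB3, an adaptor of the TAK1 kinase, at 6.28, 0.715 and 0.498. Of 14 IkB proteins and feedback inhibitors other than TNFAIP3, 3 were higher and 7 lower in PC3 against BPH-1, 4 higher and 5 lower in DU145 against BPH-1, and 1 higher and 3 lower in PC3 against DU145. NFKBIZ, an atypical IkB that aids transcription of secondary targets, was at 7.0 ± 2.82 in BPH-1, 1.44 ± 0.742 in DU145 and 10.2 ± 3.35 in PC3 (PC3 against DU145 2.20, adjusted p = 0.000318). ITCH and TAX1BP1, partners of A20, were at 30.0 and 19.2 in BPH-1, 6.24 and 7.37 in DU145 and 7.78 and 3.73 in PC3. Each was lower in both PCa lines. The DU145 libraries spread widely, from 1.13 to 11.7 for ITCH, 2.38 to 12.2 for TAX1BP1 and 0.595 to 4.48 for TBK1.

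The interleukin 1 receptor pathway had members changed in both directions. Of 17 genes tested, 4 were higher and 9 lower in PC3 than in BPH-1 (median -0.33), and of 16 tested 2 were higher and 9 lower in DU145 (median -0.54). Over all genes, lower calls also outnumbered higher ones, 40.4% against 27.1% in PC3 and 32.4% against 30.3% in DU145. Between PC3 and DU145, 4 of 13 were higher and 3 lower, beside 20.0% and 28.4% of all genes. IL1RN, the receptor antagonist, was at 1.33, 7.96, 1.52 and 4.07 FPKM in BPH-1 and no higher than 0.0895 in any PCa library. IL1RAP, the co-receptor, was at 2.5 ± 0.392, 0.681 ± 0.480 and 0.145 ± 0.0834 in BPH-1, DU145 and PC3, and all 3 comparisons passed. The decoy receptor IL1R2 was at 0.816, 0.0672 and 0.0324. IL1R1, the signalling receptor, was low in all lines (0.911, 0.744 and 0.121). It was lower in PC3 than in BPH-1 (-0.72, adjusted p = 0.00528), with no call for DU145 (-0.15, adjusted p = 0.646). In DU145 replicates 1 to 4 it was at 0.216, 1.31, 0.237 and 1.22. MYD88, the adaptor behind it, was at 2.67, 1.66 and 5.72 and higher in PC3 than in DU145 (1.24, adjusted p = 0.0159).

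For IL-1 processing, CASP1, the protease that matures IL-1β, was at 2.07 ± 0.857 FPKM in BPH-1, 0.116 ± 0.138 in DU145 and 0.00275 ± 0.0055 in PC3. PC3 thus had a mean IL1B level of 56.2 FPKM beside almost no CASP1 reads. In DU145, CASP1 was at 0.193, 0.271, 0 and 0 in replicates 1 to 4, the division seen for PTPRC and LYZ. PYCARD, the inflammasome adaptor ASC, was at 4.17, 0.0690 and 3.03, and GSDMD, the pore protein of pyroptosis, at 1.84, 3.72 and 6.25. CASP4, the sensor of cytosolic lipopolysaccharide, was at 8.37, 1.19 and 2.75. NLRP1 was highest in DU145 (0.430, 3.76 and 0.142). Of 7 genes of this list tested, 1 was higher and 5 lower in PC3 against BPH-1 and 2 higher and 4 lower in DU145 against BPH-1. Of 5 tested between PC3 and DU145, 3 were higher and 1 lower. All genes tested had 27.1% higher and 40.4% lower, 30.3% and 32.4%, and 20.0% and 28.4%, in the same order of comparisons. Only RNA was measured, and mature IL-1β was not.

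The chemokine receptors were low, and CXCR1, CXCR2 and CCR2 were read mainly in the libraries with PTPRC reads. CXCR1 was at 1.13 to 1.45 FPKM in BPH-1, at 1.51, 1.26, 0 and 0 in DU145 replicates 1 to 4 and at 0 in PC3. CXCR2 was at 0.339 to 0.772 in BPH-1, at 0.302, 0.400, 0 and 0.0406 in DU145 and at 0 in PC3. Both genes were therefore present in the same 6 libraries as PTPRC and LYZ at these levels, and whether prostate cells carried them was not tested. Of 4 receptors tested in PC3 against BPH-1, CXCR1, CXCR2 and CCR2 were lower and ACKR2, a scavenging receptor, was higher, at 0.170 against 0.0416 FPKM. The first 3 were at 0 in PC3 and passed the filter through BPH-1 alone, so they could only be called lower. Of all genes tested there, 40.4% were lower and 27.1% higher, and in DU145 against BPH-1 32.4% and 30.3%. In DU145 against BPH-1, CXCR2 was lower (-0.42, adjusted p = 0.0145), and CXCR1 and CCR2 did not pass (adjusted p = 0.103 and 0.127). CCR4, ACKR1 and ACKR4 were too low to be tested in any comparison.

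Other NF-kB target genes were mixed in direction. In PC3 against BPH-1, 5 were higher and 10 lower of 22 tested (median -0.55), in DU145 against BPH-1 5 higher and 10 lower of 21 (median -0.42), and in PC3 against DU145 8 higher and 8 lower of 22 (median 0.07). Over all genes the shares higher and lower were 27.1% and 40.4%, 30.3% and 32.4%, and 20.0% and 28.4%, in this order. The PC3 against BPH-1 counts are near these shares. ICAM1, the leukocyte adhesion ligand, was higher in both PCa lines (11.3 ± 6.94, 65.1 ± 17.7 and 63.0 ± 1.87 FPKM in BPH-1, DU145 and PC3). PTGS2, the inducible cyclooxygenase, was lowest in DU145, as IL1B and NFKBIZ were, at 8.33, 0.0197 and 5.90. The growth factor CSF2 was also lowest in DU145, at 10.6, 1.37 and 16.8, while CSF1 had 5.34, 14.4 and 1.1, highest in DU145 as CCL2 was. F3, tissue factor, was at 231 ± 60.7 in BPH-1, 4.80 ± 1.43 in DU145 and 0.560 ± 0.125 in PC3. Of 16 genes of TNF and Toll-like receptor inputs tested, 4 were higher and 10 lower in PC3 against BPH-1 and 3 higher and 6 lower in DU145 against BPH-1. Of 13 tested between PC3 and DU145, 3 were higher and 5 lower. TNFRSF11A, the receptor RANK, was at 0.307, 0.170 and 8.38, and TLR2, a sensor of bacterial lipoproteins, at 4.59, 0.250 and 0.724. In DU145, TLR2 followed the same division of libraries (0.426, 0.540, 0 and 0.0355 in replicates 1 to 4).

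Many chemokine mRNAs carry AU-rich elements, and 8 factors that bind such elements or degrade such mRNAs were examined. In PC3 against BPH-1, 2 were higher and 4 lower, in DU145 against BPH-1 none were higher and 4 lower, and in PC3 against DU145 1 was higher and 2 lower. Shares over all genes, in this order, were 27.1% higher and 40.4% lower, 30.3% and 32.4%, and 20.0% and 28.4%. ZFP36, tristetraprolin, which speeds decay of these mRNAs, was at 12.8 ± 1.58 FPKM in BPH-1, 8.51 ± 1.52 in DU145 and 2.68 ± 0.958 in PC3, with all 3 comparisons passed (PC3 against BPH-1 -1.94, adjusted p = 1.84e-05). ZC3H12A, the nuclease Regnase-1, was at 16.5, 7.22 and 21.7, higher in PC3 than in DU145 by 1.49 (adjusted p = 0.000141). Stability of the mRNAs was not measured.

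Along the chemokine cluster of chromosome 4, CXCL6, 96.0 kb from CXCL8 and another ELR chemokine, was at 1.02 ± 0.520 FPKM in BPH-1, 0.477 ± 0.158 in DU145 and 85.4 ± 12.3 in PC3. PC3 exceeded BPH-1 there by 5.44 ± 0.19 (adjusted p = 4.44e-08) and DU145 by 5.86 ± 0.15 (adjusted p = 3.25e-08). The platelet chemokine genes of the same cluster were low, PF4 at 0.161, 0.960 and 0.859, PF4V1 at 0, 0.0591 and 0.179, and PPBP at 0.658, 0.280 and 0. AREG, an EGF receptor ligand 705 kb from CXCL8, rose over the lines like CXCL3 (13.9, 27.3 and 91.4), while its neighbour EREG did not exceed 1.01 in any mean. MTHFD2L, which follows CXCL2, was at 0.420, 0.393 and 0.708. Of 15 neighbours of the members tested in PC3 against BPH-1, 5 were higher and 10 lower. In DU145 against BPH-1 4 were higher and 7 lower of 15, and in PC3 against DU145 6 were higher and 3 lower of 11. For all genes the shares in these comparisons were 27.1% higher and 40.4% lower, 30.3% and 32.4%, and 20.0% and 28.4%. Beside the interleukin 1 genes, SLC20A1 was at 7.74, 10.9 and 47.8, IL36G at 4.20, 0.0247 and 0 and CKAP2L at 14.3, 0.867 and 1.79; the first was highest in PC3 and the other 2 in BPH-1.

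**Figure D4:**
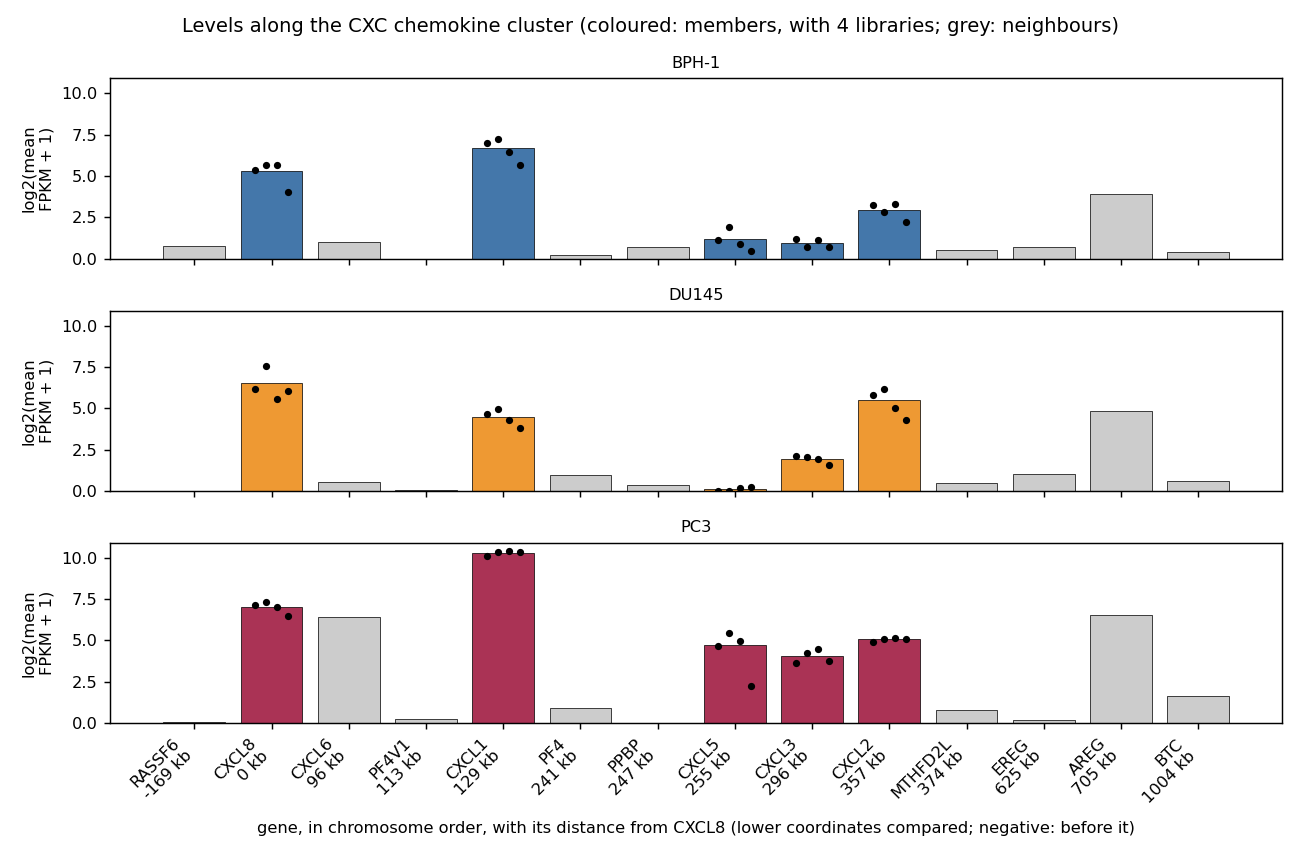
Mean level as log2(mean FPKM + 1) (vertical axis) of genes along the chemokine cluster of chromosome 4, in chromosome order with the distance from CXCL8 in kilobases under each name; coloured bars are members with 4 libraries as dots, grey bars are neighbours. CXCL1 is the tallest bar in PC3, CXCL6 stands out in PC3 only, and PF4V1, PF4 and PPBP stay low in all lines.

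By likeness over the 12 libraries, the genes closest to CXCL8 among 10500 protein-coding genes with a mean of at least 1 FPKM were STX2 (Pearson r of log2 values 0.90), TCEAL3 (0.89), SEC22C (0.88), RPL7 (0.87) and RGMB (0.87). TNFAIP3 was closest to SMS (0.98), TSPYL4 (0.98), RPA1 (0.98), C1orf112 (0.97) and TMEM263 (0.97), which were all highest in BPH-1. The 12 points share 3 lines, so these r describe mainly the order of the lines.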

How the data were processed

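RNA-seq values of 12 libraries (4 each of BPH-1, DU145 and PC3, 0 columns unassigned) were used. The authors deposited 1 value per gene and library, whose form is FPKM although the header names no unit. The submitters' processing notes list CASAVA 1.8, HISAT2 2.1.0, edgeR and GRCh38. The counting program, strand and filters were not given in the sources used here. Library totals were recovered from the steps between low FPKM values with the summed distinct exons of GENCODE 29 as length, where 92.0% to 93.4% of values up to 50 reads were whole within 0.01. Totals were 12950665 to 16309559 reads (median 15341001), and they set the filter, the floor of 3 reads and the read numbers, which cover counting error only. GENCODE 29 gave no length for 263 genes, which were not tested. The CCL20 length was taken from the steps, because its annotated one gave no whole reads. Summed FPKM was 246960 ± 2986 in BPH-1, 293757 ± 5858 in DU145 and 298496 ± 5975 in PC3 (SD, n = 4).

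The test was limma 3.58.1 in R 4.3.3, whose variance prior followed mean expression, on log2(FPKM + 1) of the 2 lines compared. Genes needed 10 or more reads, scaled to the median depth, in 4 libraries, and 15 in all. Adjusted p-values are Benjamini-Hochberg over all genes tested, with 0.05 as threshold. Fold changes on this scale understate those of low genes. On simulated counts with the BPH-1 depths, 95% of 200 genes changed 2-fold were recovered among 16442 (11 of 201 calls were unchanged genes). The changed genes were taken from well-read ones, and the spread was a set value, not that of the replicates. These rates therefore need not hold for members with few reads or a wide spread. Permutation tests were exact and two-sided. Replicates of a line differed in all 18 pairs by far more than sampling noise (chi-square per gene 17.3 to 215), so none was a duplicate.

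The members and the 10 lists of pathway genes were chosen with earlier results of these data known. Named were all members, all NF-kB subunits, chemokine receptors and interleukin 1 receptor genes, up to 3 called genes per other list and comparison by size of change, and the 5 genes most like CXCL8 and TNFAIP3. Further genes of the chemokine cluster are given for completeness. Alternatives were another pseudocount (0.1), no filter, a stricter filter, a replicate block, 1 fit over 3 lines, rescaling, voom on recovered reads, a fold threshold and leaving out libraries. Fits with pairs of DU145 libraries were added after the data were seen. Promoter windows were from RefSeq (GRCh38.p14), and figures were drawn with matplotlib 3.10.9 in Python 3.11.15.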

Additional observations from a re-analysis of the deposited data

Results flagged for a closer look

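Within a line, 4 libraries were compared for 73 gene and line combinations of the members, NF-kB subunits, chemokine receptors and interleukin 1 receptor genes, and 7 had 1 library set apart from the other 3. Chance would set about 1 in 20 apart. CXCL8 in DU145 replicate 2 was at 185 FPKM against 46.6 to 70.0 in the others. IL1B in the same library was at 0.200 FPKM, where the others had 0.0621 to 0.0828. REL in BPH-1 replicate 2 was at 2.96 FPKM, below the 3.94 to 4.04 of the rest. The other 4 are genes near the floor, read in 1 library and at 0 in the rest: CCR4 in PC3 replicate 1 (0.0499 FPKM), ACKR1 (0.0137) and ACKR4 (0.0554) in DU145 replicate 3 and IL1RN in PC3 replicate 2 (0.0375).

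For 3 members, PC3 and DU145 differed from BPH-1 in opposite directions, and the difference between the PCa lines passed the test itself. It was 5.87 on the log2 scale for CXCL1 and 4.22 for CXCL5, both higher in PC3 and lower in DU145 than in BPH-1. For CCL2 it was -3.18, lower in PC3 and higher in DU145. The BPH-1 libraries are common to both comparisons.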

How the results depend on the processing

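Of 558 log2 differences of members under the alternatives, 532 kept direction and side of the threshold, 18 newly passed it, 2 lost it and 6 changed sign. Without 1 library, CXCL2 ranged from -0.591 to 0.0461 and TNFAIP3 from -0.007 to 0.5416 in PC3 against DU145. The changes of sign were all in PC3 against DU145 and none passed in either fit: CXCL2 was 0.0461 without DU145 replicate 2 and 0.4351 against replicates 3 and 4 only, CCL20 0.0559 against replicates 3 and 4 only, and TNFAIP3 -0.007 without DU145 replicate 3, -0.0758 against replicates 2 and 4 only and -0.2735 against replicates 1 and 2 only. The cause was not tested. IL1B in PC3 against BPH-1 also passed in 1 fit over 3 lines (adjusted p = 0.0463) and with upper-quartile scaling (0.0135), as CXCL8 in DU145 against BPH-1 did (0.0350 and 0.0160) and without DU145 replicate 3 (0.0327). Of the 2 calls lost, both were CXCL5 in DU145 against BPH-1.

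The stricter filter tests fewer genes. With it, 5 of 6 members tested were called in DU145 against BPH-1 and 2 of 5 in PC3 against DU145. All genes had 3779 higher and 3946 lower of 13180, and 2346 higher and 2952 lower of 12867, in this order. In PC3 against DU145 replicates 1 and 2 only, 8 of 10 members were called, beside 2759 higher and 4308 lower of 17250 genes. Requiring a log2 difference over 1 left 4429 genes in PC3 against BPH-1, 4894 in DU145 against BPH-1 and 3178 in PC3 against DU145. Leaving out 1 library gave 9 to 10, 8 to 9 and 5 to 6 members and 10605 to 11323, 9619 to 11459 and 7021 to 8242 genes. Upper-quartile scaling moved the median of all genes in PC3 against BPH-1 by 0.22 and the share of higher calls from 40.2% to 55.2%, and in DU145 against BPH-1 by 0.16; equal sums moved them by -0.16 and -0.14. Same-numbered libraries of different lines did not deviate together more than others (r from -0.655 to 0.515, over 0.1 in 2 of 12 pairs). For different numbers r ran from -0.661 to 0.701 and was over 0.1 in 8 of 36 pairs. The numbers thus showed no pairing of the samples, which this comparison cannot exclude. The largest r were between DU145 and PC3. PC3 replicate 4 had 0.61 and 0.70 with DU145 replicates 1 and 3, and -0.66 and -0.65 with replicates 2 and 4. PC3 replicates 1 and 2 had 0.44 to 0.55 with DU145 replicates 2 and 4, and -0.54 to -0.46 with replicates 1 and 3. The source of this shared deviation was not tested. With a replicate block, 10, 9 and 5 members and 10739, 10131 and 6750 genes were called, and IL1B in PC3 (adjusted p = 0.0117) and CXCL8 in DU145 (0.0254) passed against BPH-1. Without DU145 replicate 2, the DU145 mean of CXCL8 was 60.4 FPKM in place of 91.6 and that of CCL20 0.461 in place of 1.02. Depth limits IL1A, CXCL5, CCL2 and IL1B where a line holds under 40 reads.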
